A study of Mus musculus with 8 samples.

Results

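Chemokines are small secreted proteins that set up concentration gradients, and chemokine receptors are the G protein-coupled receptors with which leukocytes read them. Ligands are named CCL, CXCL, XCL or CX3CL after the spacing of their cysteines, and receptors follow the class of their ligands. In the uterus, leukocyte traffic follows the estrous cycle of the mouse, and epithelium, stroma and resident macrophages are all known sources of chemokines. The genes described here are 45 members of this system, 31 ligands and 14 receptors, taken by symbol from the 52308 genes of the deposited table of counts. The rule is membership of the family, and the members were chosen with earlier results of these data known.

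RNA of the whole uterus was sequenced from female ICR mice, an outbred strain, aged 6 to 8 weeks. Each mouse was staged from the cells in a vaginal smear, and 2 libraries were made per stage, in the order proestrus, estrus, metestrus and diestrus. No treatment, transgene or surgery is named, so the groups differ by stage alone as far as the labels tell. Whether the 2 libraries of a stage came from separate mice is not stated, and p-values therefore measure the spread between these libraries, which may be technical.

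Total counts lay between 17863546 and 21896786 per library. Levels are given as CPM, the counts of a gene relative to the total of its library scaled for composition, with the 2 libraries of a stage in the order of their replicate numbers, and means are given ± SD (n = 2). Genes were tested with edgeR's quasi-likelihood F test over all 8 libraries. A gene is called changed when its Benjamini-Hochberg adjusted p over 18114 tested genes is under 0.05, and a log2 fold change is the stage named first minus the stage named after it, ± SE. In bulk RNA, fewer cells of a type and less RNA per cell cannot be told apart.

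Transcripts of genes known from liver were high in both libraries of estrus and raised in 1 of proestrus. Alb, Apoa1 and Ttr, which encode plasma proteins made by hepatocytes, summed to 98.2 and 0.943 CPM in proestrus, 751 and 570 CPM in estrus, 0.0893 and 0.342 CPM in metestrus, and 2.65 and 3.33 CPM in diestrus. Whether this RNA came from liver tissue or from the uterus was not tested, nor was its part in the estrus values below. The diestrus libraries stood apart from each other: 3115 genes were more than 2-fold apart between them, against 1226 to 1867 in the other stages. The sum of smooth muscle markers was 17340 CPM in the first of them and 6734 CPM in the other.

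Of the 45 members, 37 had enough counts to be tested, 26 ligands and 11 receptors. The other 8 were Ccl3, Ccl17, Ccl19, Cxcl3, Cxcl11, Ccr6, Cxcr1 and Cxcr5, none above 0.774 CPM in any library. Of the 37, 22 changed across the 4 stages (16 ligands and 6 receptors), where 39.1% of all tested genes changed. When no filter on low counts was used, 28 of 44 members changed, and 7628 of the 31226 genes then tested. The mean level of these 22 was highest in estrus for 16, in proestrus for 5 (Ccl2, Ccl7, Ccl11, Ccl12 and Ccl28) and in diestrus for 1 (Cxcr6). The stage of the highest mean was not counted over all genes, so no share stands beside these counts. Without estrus library 1, 13 members changed across the stages.

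**Figure D1:**
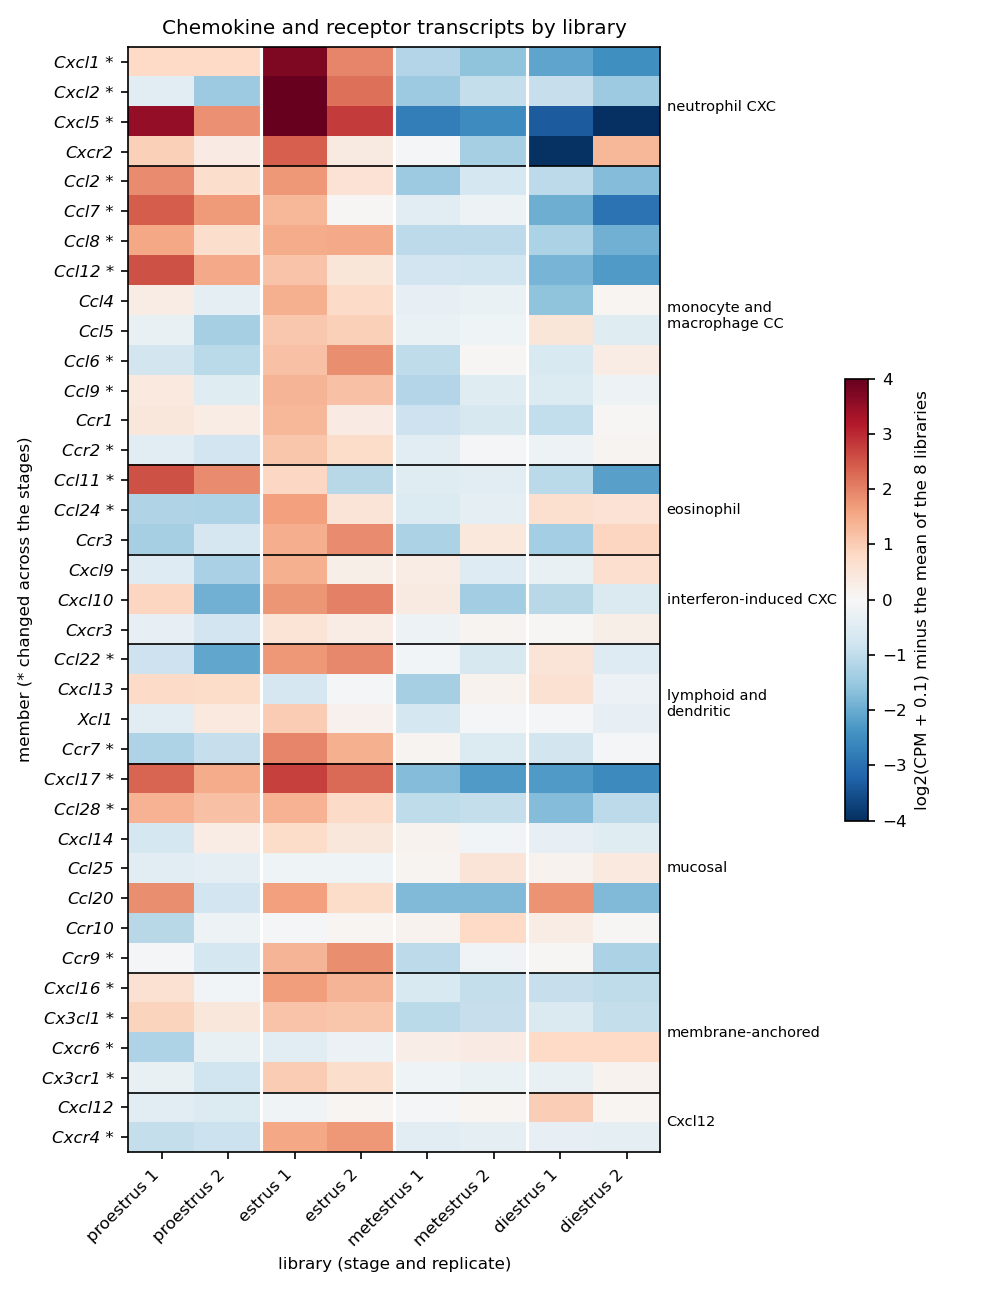
Level of the 37 tested members in each library. Rows are genes grouped by role, columns the 8 libraries in the order of the cycle, and the colour is the log2 CPM, with 0.1 CPM added, minus the mean of the gene's row, cut at -4 and 4. A star marks a member that changed across the stages. Estrus holds most of the high values, Ccl7, Ccl11 and Ccl12 are highest in proestrus, and Cxcr6 is highest in diestrus.

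From proestrus into estrus, members that passed the test were all higher. Estrus against proestrus, 10 members were higher, or 27.0% of the 37, where 8.12% of all tested genes were higher. The 10 were Cxcl1, Cxcl2, Ccl6, Ccl22, Ccl24, Cxcl16, Ccr2, Ccr7, Cxcr4 and Cx3cr1. None was lower by edgeR (3 at an unadjusted p under 0.05, and 1 by DESeq2), where 6.94% of all tested genes were lower. The median log2 fold change of the members was 1.05, and that of all tested genes 0.0068. The count of 10 was 1 without estrus library 1, 5 without estrus library 2, 5 without proestrus library 1 and 2 without proestrus library 2.

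The step out of estrus held the most member calls. Metestrus against estrus, 20 members were lower, or 54.1% of the 37, where 19.5% of all tested genes were lower. None was higher (0 also at an unadjusted p under 0.05, and 0 by DESeq2), where 16.7% of all tested genes were higher. The median log2 fold change was -1.96 over the members and -0.0462 over all tested genes. The count of 20 was 11 without estrus library 1, 10 without metestrus library 1 and 11 without metestrus library 2.

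Between the later stages no member passed the test. Diestrus against metestrus, edgeR called 0 members higher and 0 lower, with 1 and 2 at an unadjusted p under 0.05 and with 0 and 1 called by DESeq2. Of all tested genes, 0.282% were higher and 0.226% lower. Without diestrus library 2, 1 member was higher. The median log2 fold change was 0.1036 over the members and 0.0245 over all tested genes.

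Proestrus against diestrus, 11 members were higher, or 29.7% of the 37, where 12.0% of all tested genes were higher, and all 11 were ligands. Another 4 were lower (Ccl24, Cxcl12, Cxcr4 and Cxcr6), or 10.8%, where 10.4% of all tested genes were lower. The median log2 fold change was 0.29 over the members and -0.0136 over all tested genes. The 11 were 7 without proestrus library 1. The 4 were 2 without diestrus library 1, 1 without proestrus library 2 or either estrus library, and 0 without proestrus library 1 or either metestrus library, and likewise in a fit of the pair alone (5 to 9 at an unadjusted p under 0.05 in those fits).

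Estrus against diestrus, 18 members were higher, or 48.6% of the 37, where 13.9% of all tested genes were higher. None was lower by edgeR (1 at an unadjusted p under 0.05, and 0 by DESeq2), where 9.97% of all tested genes were lower. The median log2 fold change was 1.65 over the members and -0.0175 over all tested genes, and the count of 18 was 9 without estrus library 1. Metestrus against proestrus, 10 members were lower, all ligands, or 27.0%, where 10.3% of all tested genes were lower. Cxcr4 was higher, or 2.7%, where 6.68% of all tested genes were higher. DESeq2 did not call Cxcr4 there, nor did edgeR without any 1 library of the first 3 stages. The median log2 fold change was -0.37 over the members and 0.0068 over all tested genes. The 10 were 4 without proestrus library 1, 1 without metestrus library 1 and 0 without metestrus library 2 (12 at an unadjusted p under 0.05).

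**Figure D2:**
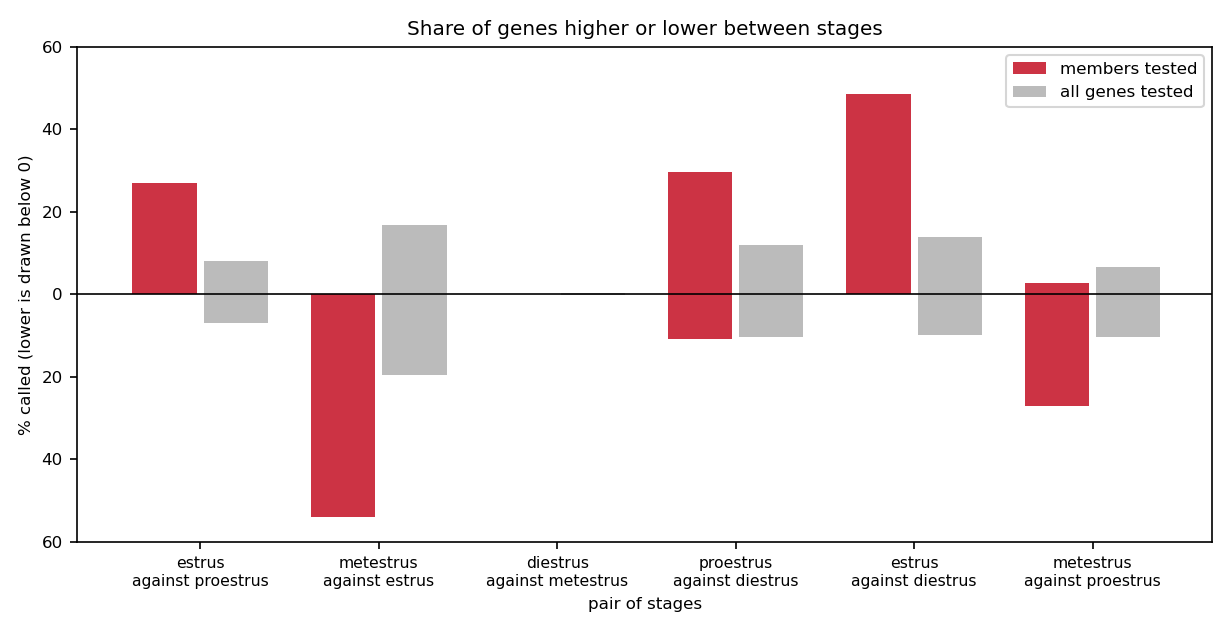
Share of tested genes called in each pair of stages. The vertical axis is the percentage called, with higher calls above 0 and lower calls below it, for the 37 tested members and beside them for all 18114 tested genes. The members' share reaches 54.1% lower for metestrus against estrus and 48.6% higher for estrus against diestrus, and is 0 in both directions for diestrus against metestrus.

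Neutrophil-attracting CXC ligands share the receptor Cxcr2, and in the mouse Cxcl5 also uses it. Their genes lie together on chromosome 5 (GRCm38, chr5:90759360-90905938), in the order Cxcl5, Cxcl3, Cxcl1 and Cxcl2. The start regions of Cxcl1, Cxcl2 and Cxcl3 are shown with that of Cxcl10, a ligand of another axis on the same chromosome, because the first 3 each hold a match to the kappaB motif shortly before the start, and Cxcl10 holds that motif and others. Each is the RefSeq sequence (GRCm38.p6) from 250 bases before to 50 bases after the annotated start, 5′ to 3′ on the gene's strand, with motif matches in capitals.
Cxcl1: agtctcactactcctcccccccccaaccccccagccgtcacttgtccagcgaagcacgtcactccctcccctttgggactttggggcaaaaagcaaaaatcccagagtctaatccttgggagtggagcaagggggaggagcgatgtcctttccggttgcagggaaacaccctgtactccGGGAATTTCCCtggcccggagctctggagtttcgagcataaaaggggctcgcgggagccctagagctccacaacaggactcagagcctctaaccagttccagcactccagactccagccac
Cxcl2: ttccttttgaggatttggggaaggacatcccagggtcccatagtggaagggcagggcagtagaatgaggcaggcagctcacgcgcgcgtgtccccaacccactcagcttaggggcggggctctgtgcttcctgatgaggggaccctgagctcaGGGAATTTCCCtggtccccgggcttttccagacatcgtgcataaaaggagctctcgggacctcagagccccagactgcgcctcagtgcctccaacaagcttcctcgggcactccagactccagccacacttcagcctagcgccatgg
Cxcl3: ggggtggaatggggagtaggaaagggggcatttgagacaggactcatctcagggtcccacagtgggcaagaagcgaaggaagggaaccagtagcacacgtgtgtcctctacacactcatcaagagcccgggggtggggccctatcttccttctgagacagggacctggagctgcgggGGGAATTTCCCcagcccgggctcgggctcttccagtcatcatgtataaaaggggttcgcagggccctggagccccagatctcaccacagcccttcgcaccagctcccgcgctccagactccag
Cxcl10: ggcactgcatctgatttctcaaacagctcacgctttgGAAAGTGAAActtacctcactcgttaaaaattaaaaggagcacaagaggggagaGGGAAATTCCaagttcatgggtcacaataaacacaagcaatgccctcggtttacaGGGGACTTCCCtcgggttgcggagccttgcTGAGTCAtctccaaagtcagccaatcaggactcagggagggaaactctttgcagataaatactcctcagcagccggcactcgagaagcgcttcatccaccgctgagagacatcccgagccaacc
The stretches are chr5:90890995-90891294 (plus strand) for Cxcl1, chr5:90903649-90903948 (plus) for Cxcl2, chr5:90785851-90786150 (plus) for Cxcl3 and chr5:92348840-92349139 (minus) for Cxcl10. The capitals begin at -71 in Cxcl1, -97 in Cxcl2 and -73 in Cxcl3, counted from the start, and in each of these they are 2 overlapping matches to the kappaB motif. In Cxcl10 they mark an interferon-stimulated response element (GAAA repeated after any 2 bases) at -213, kappaB matches at -159, -104 and -103, and an AP-1 motif (TGANTCA) at -74. On either strand, a kappaB match stood in 9 of the 32 member genes with a promoter in the table (34 promoters), and in 8.46% of the 32851 promoters of the table. AP-1 stood in 5 member genes and 7.81% of all promoters, and the interferon-stimulated response element in 3 and 3.44%. The STAT motif (TTC and GAA with any 3 bases between) stood in 3 and 8.3%, and the estrogen response element (GGTCA and TGACC with any 3 bases between) in 0 and 0.07%. A match is a description of these letters and no site of binding was measured.

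Cxcl1, Cxcl2 and Cxcl5 had their highest means in estrus and were all under 1 CPM in metestrus and diestrus. Cxcl1 measured 1.33 and 1.34 CPM in proestrus, 10.8 and 3.10 CPM in estrus, 0.268 and 0.171 CPM in metestrus, and 0.0900 and 0.0504 CPM in diestrus. Both estrus libraries lay above all others, and both proestrus libraries above those of metestrus and diestrus. It changed across the stages (adjusted p = 0.00399). Metestrus against estrus its log2 fold change was -4.95 ± 0.71 (adjusted p = 0.00411), and estrus against proestrus 2.37 ± 0.60 (adjusted p = 0.0436). Diestrus held 3 counts of Cxcl1 in all, so the estrus over diestrus ratio was 98.3, with a 95% counting interval of 33.3 to 480. The estrus against proestrus call of Cxcl1 ended without either proestrus library (adjusted p = 0.154 and 0.182), estrus library 1 (0.188) or either metestrus library (0.0811 and 0.0812), and in a fit of the pair alone (0.0654).

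Nearly all counts of Cxcl2 came from estrus, which held 148, with 2 in proestrus, 1 in metestrus and 1 in diestrus. Its levels were 0.103 and 0 CPM in proestrus, 6.25 and 1.19 CPM in estrus, 0 and 0.0428 CPM in metestrus, and 0.0450 and 0 CPM in diestrus. The estrus over proestrus ratio was 74.6 (95% counting interval 20.3 to 621) and the estrus over metestrus ratio 172 (30.4 to 6844). Such intervals cover counting error only. The across-stage call of Cxcl2 (adjusted p = 0.00892) ended without estrus library 1 (0.0572). Estrus against proestrus it was called higher (adjusted p = 0.0278), and this ended without either proestrus library (0.0813 and 0.138), estrus library 1 (0.120) or either metestrus library (0.0562 and 0.0561). Its metestrus against estrus call (adjusted p = 0.0107) ended without either metestrus library (0.0714 and 0.0649).

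Cxcl5 had the highest level per length of the neutrophil ligands, with 11.9 CPM per kb of exon over the 8 libraries. It measured 42.0 and 13.1 CPM in proestrus, 94.9 and 25.9 CPM in estrus, 0.446 and 0.556 CPM in metestrus, and 0.270 and 0.101 CPM in diestrus. Its proestrus and estrus libraries overlapped with each other and lay far above the rest. Metestrus against estrus its log2 fold change was -6.89 ± 0.97 (adjusted p = 0.00391), and proestrus against diestrus 7.14 ± 1.07 (adjusted p = 0.00658). Estrus against proestrus it was 1.13 ± 0.70 (adjusted p = 0.303). Cxcl3 was not tested. It held 22 counts, at most 0.400 CPM in a library, 11 of them in proestrus and 10 in estrus.

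The receptors of these ligands did not pass the test. Cxcr2 measured 2.87 and 1.84 CPM in proestrus, 7.90 and 1.86 CPM in estrus, 1.34 and 0.513 CPM in metestrus, and 0 and 3.73 CPM in diestrus (adjusted p = 0.541 across the stages), and its estrus and diestrus libraries were far apart. Without diestrus library 2 the p of Cxcr2 was 0.0269. Cxcr1 had no count in any library, which allows up to 3 counts in each. Of the 11 neutrophil markers, 3 changed across the stages (1 without either estrus library). Only 7 of these markers could be tested, and 39.1% of all tested genes changed across the stages. Ltf, which uterine epithelium also makes under estrogen, held most of the sum of the list. Without Ltf the list summed to 32.7 and 29.5 CPM in proestrus, 110 and 136 CPM in estrus, 20.5 and 33.0 CPM in metestrus, and 17.0 and 58.6 CPM in diestrus. The markers S100a8, S100a9 and Ly6g of this list summed to 12.3 and 9.08 CPM in proestrus, 8.71 and 2.63 CPM in estrus, 1.56 and 1.28 CPM in metestrus, and 0.405 and 6.41 CPM in diestrus. Elane, Ngp and Camp, genes of neutrophil precursors, were at 0 in most libraries. The part of neutrophil number in these results was not tested.

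**Figure D3:**
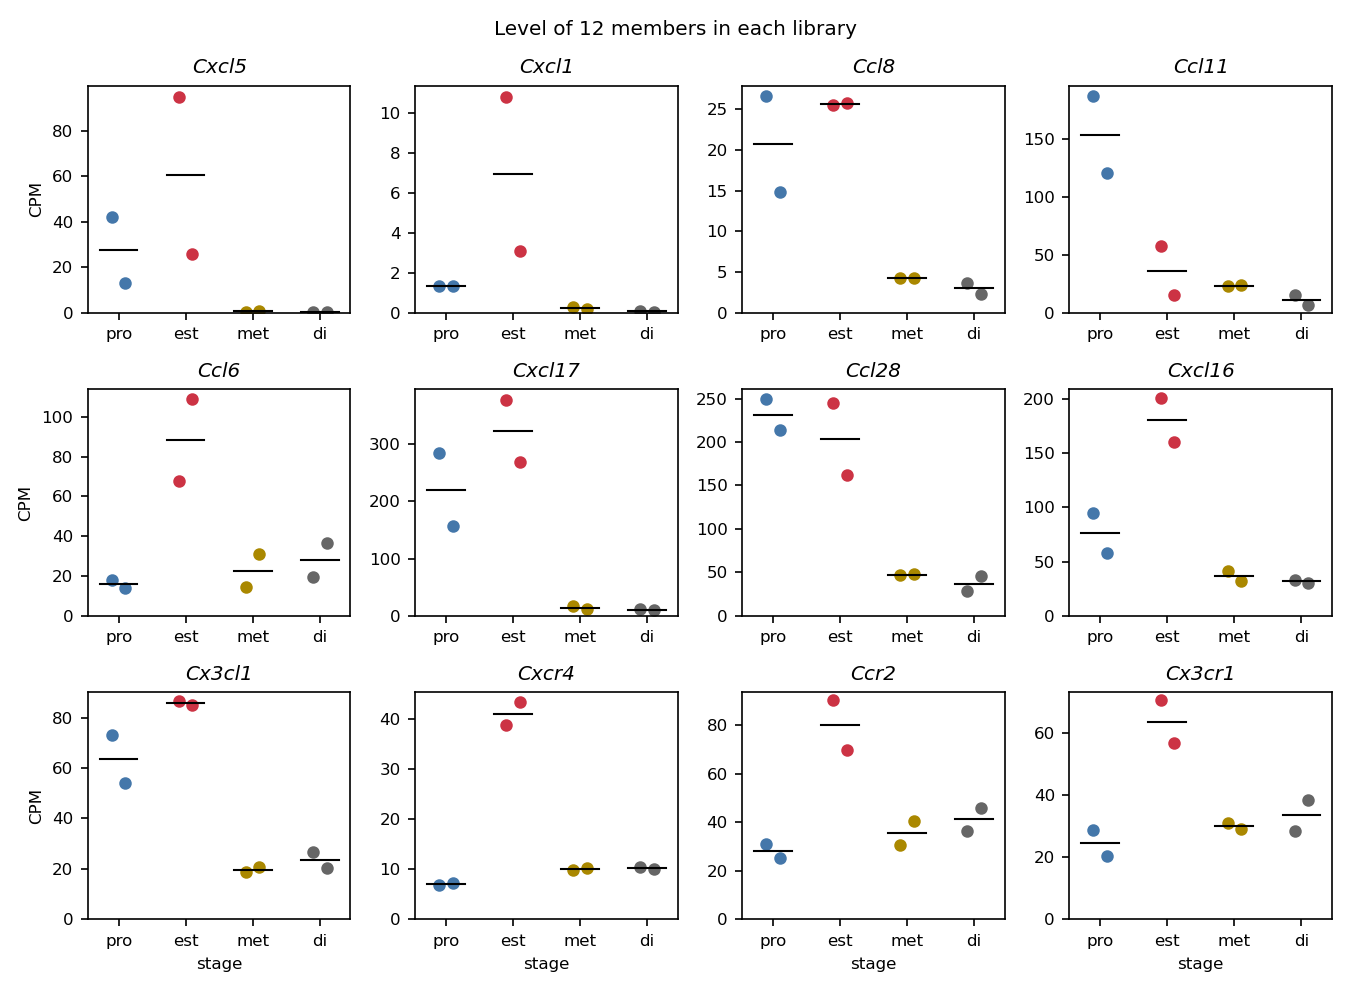
CPM per library of 12 members, each on its own linear axis from 0, with stages in the order of the cycle, libraries as points and the mean of the 2 libraries as a line. Cxcl5, Cxcl17 and Ccl28 are low in metestrus and diestrus, Ccl11 is highest in proestrus, and both estrus libraries of Cxcr4, Ccr2 and Ccl6 lie above all others.

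The monocyte chemoattractants Ccl2, Ccl7, Ccl12 and Ccl8, of which the first 3 act through Ccr2, lie with Ccl11 within 81.2 kb of chromosome 11 (chr11:82035571-82116799). All 5 were higher in proestrus than in diestrus and lower in metestrus than in proestrus. Of these 5 genes, 4 had their highest mean in proestrus, and Ccl8 in estrus. Ccl7 measured 12.5 and 7.39 CPM in proestrus, 5.75 and 2.32 CPM in estrus, 1.65 and 1.93 CPM in metestrus, and 0.495 and 0.202 CPM in diestrus. Its levels stepped down from stage to stage with no overlap between neighbouring stages. Proestrus against diestrus the log2 fold change of Ccl7 was 4.79 ± 0.64 (adjusted p = 0.00461), and estrus against proestrus -1.30 ± 0.52 (adjusted p = 0.139).

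Ccl12 followed the same order, at 12.4 and 6.05 CPM in proestrus, 4.65 and 2.94 CPM in estrus, 1.16 and 1.16 CPM in metestrus, and 0.495 and 0.353 CPM in diestrus. Its log2 fold change was 4.42 ± 0.50 in proestrus against diestrus (adjusted p = 0.00292) and 3.14 ± 0.48 in estrus against diestrus (adjusted p = 0.00718). Ccl2 measured 8.51 and 3.72 CPM in proestrus, 7.65 and 3.41 CPM in estrus, 0.759 and 1.33 CPM in metestrus, and 1.03 and 0.605 CPM in diestrus. The first 2 stages overlapped for Ccl2 and stood above the last 2. Its across-stage call (adjusted p = 0.0197) ended without either metestrus library (0.0630 and 0.0540). Proestrus against diestrus Ccl2 had a log2 fold change of 2.88 ± 0.63 (adjusted p = 0.0218), which ended without proestrus library 1 (0.111), without diestrus library 2 (0.0608) and in a fit of the pair alone (0.0684).

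Ccl8, which in the mouse acts through Ccr8, measured 26.7 and 14.8 CPM in proestrus, 25.6 and 25.8 CPM in estrus, 4.29 and 4.28 CPM in metestrus, and 3.69 and 2.32 CPM in diestrus. The split between the stages before and after the end of estrus was complete. Metestrus against estrus its log2 fold change was -2.58 ± 0.34 (adjusted p = 0.00337), and proestrus against diestrus 2.78 ± 0.35 (adjusted p = 0.00379). Ccr8 itself was at most 0.250 CPM. The metestrus against proestrus calls of this gene group each ended without either metestrus library. For Ccl8 (adjusted p = 0.00931) the values were then 0.0753 and 0.0843, for Ccl12 (0.00946) 0.0772 and 0.0887, for Ccl7 (0.0286) 0.152 and 0.154, and for Ccl2 (0.0363) 0.177 and 0.138. Without proestrus library 1 they were 0.151 for Ccl7, 0.184 for Ccl2 and 0.0501 for Ccl12.

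Ccl6 and Ccl9, macrophage-derived ligands of Ccr1 in the mouse, lie with Ccl5, Ccl3 and Ccl4 in a neighbouring stretch of chromosome 11 (chr11:83525778-83664683). All 5 of these had their highest mean in estrus. Ccl6 measured 18.0 and 14.2 CPM in proestrus, 67.7 and 109 CPM in estrus, 14.5 and 31.0 CPM in metestrus, and 19.6 and 36.7 CPM in diestrus, and both estrus libraries lay above all others. Its log2 fold change was 2.46 ± 0.47 in estrus against proestrus (adjusted p = 0.0209) and -1.96 ± 0.46 in metestrus against estrus (adjusted p = 0.0184). The across-stage call of Ccl6 (adjusted p = 0.0177) ended without proestrus library 2 (0.0514) and without estrus library 2 (0.103). Its estrus against proestrus call ended without any 1 of the 4 libraries of that pair (0.0621 to 0.121), and its metestrus against estrus call without estrus library 2 (0.0885) or metestrus library 1 (0.0856).

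Ccl9 measured 14.6 and 7.94 CPM in proestrus, 28.5 and 25.4 CPM in estrus, 4.87 and 7.87 CPM in metestrus, and 7.65 and 9.58 CPM in diestrus. Only the estrus libraries stood clear of the rest. Metestrus against estrus its log2 fold change was -2.08 ± 0.36 (adjusted p = 0.00715). Its across-stage call (adjusted p = 0.0140) ended without either estrus library (0.0802 and 0.0615). Ccl5, a ligand made by T and NK cells among others, measured 1.33 and 0.596 CPM in proestrus, 3.60 and 3.30 CPM in estrus, 1.34 and 1.45 CPM in metestrus, and 2.34 and 1.16 CPM in diestrus (adjusted p = 0.0693). Ccl5 passed without either diestrus library (0.0319 and 0.0335) and without the filter on low counts (0.0496). Ccl4 lay between 0.0900 and 1.45 CPM (adjusted p = 0.140, and 0.0262 without diestrus library 2), and Ccl3 at or under 0.465 CPM was not tested.

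The receptor Ccr2, which brings monocytes from the blood, had its 2 highest values in estrus. It measured 30.9 and 25.1 CPM in proestrus, 90.3 and 69.8 CPM in estrus, 30.6 and 40.4 CPM in metestrus, and 36.4 and 46.0 CPM in diestrus. The log2 fold change was 1.52 ± 0.22 in estrus against proestrus (adjusted p = 0.00986) and -1.17 ± 0.21 in metestrus against estrus (adjusted p = 0.00861). The ligands Ccl2, Ccl7 and Ccl12 had their highest means in proestrus. They did not pass the test in estrus against proestrus (adjusted p = 0.883, 0.139 and 0.0826), so no order in time relative to Ccr2 was shown. Without estrus library 1 the calls of Ccr2 ended (adjusted p = 0.0567 across the stages, 0.0598 against proestrus and 0.0553 for metestrus against estrus). The estrus against proestrus call also ended without proestrus library 2 (0.0693), and the metestrus against estrus call without metestrus library 1 (0.0568). Ccr1 measured 4.97 and 4.42 CPM in proestrus, 9.10 and 4.54 CPM in estrus, 1.96 and 2.27 CPM in metestrus, and 1.75 and 3.73 CPM in diestrus. Ccr1 did not pass across the stages (adjusted p = 0.0688), but did by DESeq2 (0.0196), without the filter on low counts (0.0350) and without either diestrus library (0.0443 and 0.0227). Metestrus against estrus its log2 fold change was -1.69 ± 0.47 (adjusted p = 0.0314), a call that ended without estrus library 1 (0.167), either metestrus library (0.146 and 0.124) or either proestrus library (0.0524 and 0.0523).

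The sum of macrophage and monocyte markers was highest in estrus. Of the 16 listed, 13 changed across the stages, and all but Marco had counts enough to be tested. Estrus against proestrus 6 were higher and Lyve1 was lower, metestrus against estrus 10 were lower, and estrus against diestrus 10 were higher and 1 lower. Of all tested genes, 39.1% changed across the stages, and 19.5% were lower in metestrus against estrus. In estrus against proestrus 8.12% of all were higher and 6.94% lower, and in estrus against diestrus 13.9% were higher and 9.97% lower. The sum was 863 to 1393 CPM in proestrus, 2610 to 2705 CPM in estrus, 865 to 936 CPM in metestrus and 852 to 1137 CPM in diestrus. Adgre1, which encodes the macrophage surface protein F4/80, measured 33.2 and 26.9 CPM in proestrus, 120 and 111 CPM in estrus, 35.3 and 38.7 CPM in metestrus, and 35.2 and 48.9 CPM in diestrus. The part of macrophage number in the results of Ccl6, Ccl9, Ccr2 and Cx3cr1 was not tested.

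**Figure D4:**
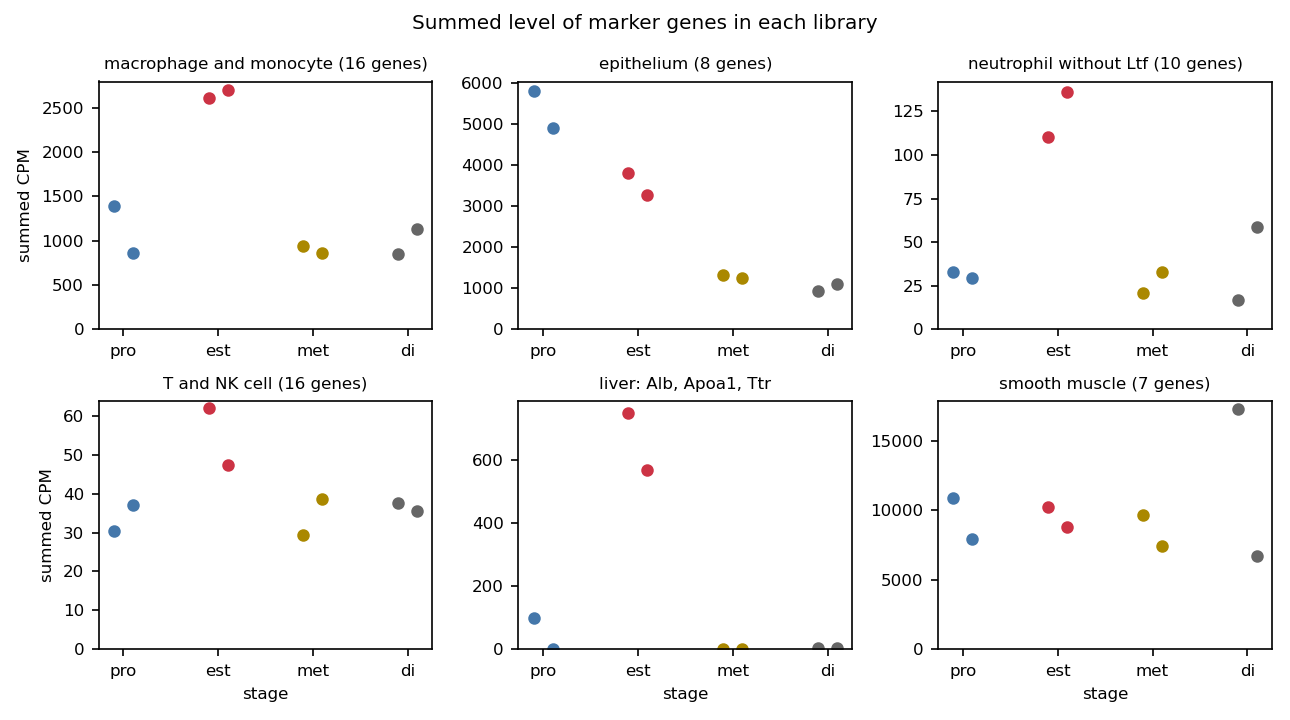
Summed CPM of 6 marker lists, each on its own linear axis from 0, with libraries as points and stages in the order of the cycle. Macrophage and monocyte markers reach 2610 to 2705 CPM in estrus, and epithelial markers lie between 938 and 1319 CPM in metestrus and diestrus and above 3288 CPM before. The sum of Alb, Apoa1 and Ttr is high in both estrus libraries and raised in proestrus library 1.

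Ccl11, or eotaxin, draws eosinophils through Ccr3 and is known in the rodent uterus as an estrogen-related product. Ccl11 measured 187 and 120 CPM in proestrus, 57.4 and 14.8 CPM in estrus, 22.7 and 24.1 CPM in metestrus, and 15.1 and 7.01 CPM in diestrus. Both proestrus libraries lay above all others, and the estrus libraries were far apart and overlapped with the later stages. Means were 154 ± 46.7, 36.1 ± 30.1, 23.4 ± 1.02 and 11.1 ± 5.73 CPM (SD, n = 2) in that order of stages. Proestrus against diestrus the log2 fold change was 3.79 ± 0.69 (adjusted p = 0.0121), and estrus against proestrus -2.09 ± 0.64 (adjusted p = 0.0711). The across-stage call of Ccl11 (adjusted p = 0.0151) ended without proestrus library 1 (0.0686) or either metestrus library (0.0513 and 0.0515), and the proestrus against diestrus call without proestrus library 1 (0.0608). Metestrus against proestrus Ccl11 was called lower (adjusted p = 0.0357), which ended without any 1 of the 4 libraries of that pair (0.0677 to 0.184).

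Ccl24, the other eotaxin of the list, had its low point in proestrus. It measured 0.103 and 0.0993 CPM in proestrus, 1.35 and 0.568 CPM in estrus, 0.223 and 0.257 CPM in metestrus, and 0.630 and 0.605 CPM in diestrus. The log2 fold change of Ccl24 was 3.18 ± 0.61 in estrus against proestrus (adjusted p = 0.0216), which ended without either proestrus library (0.0919 and 0.117) or estrus library 1 (0.1001). Across the stages its adjusted p of 0.0222 was between 0.0592 and 0.0745 without either proestrus library, estrus library 1 or either metestrus library. Metestrus against estrus Ccl24 was called lower (adjusted p = 0.0286), which ended by DESeq2 (0.120) and without estrus library 1 or either metestrus library (0.117 to 0.169). Proestrus against diestrus it was called lower too (adjusted p = 0.0316), which ended by DESeq2 (0.0907), in a fit of the pair alone (0.0830) and without any 1 library outside estrus (0.0569 to 0.147).

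Ccr3 stood higher in both estrus libraries than elsewhere. It measured 1.33 and 2.13 CPM in proestrus, 9.75 and 13.1 CPM in estrus, 1.38 and 4.75 CPM in metestrus, and 1.30 and 6.35 CPM in diestrus. The libraries within metestrus and within diestrus were far apart, and Ccr3 did not pass the test across the stages (adjusted p = 0.0992). It passed by DESeq2 (0.00922), without the filter on low counts (0.0284) and without either diestrus library (0.0294 and 0.0183). Of the 7 eosinophil markers, 3 could be tested, and 0 changed by edgeR (0 at an unadjusted p under 0.05, 0 by DESeq2, and 1 without diestrus library 2). Across the stages 39.1% of all tested genes changed. The 7 eosinophil markers summed to 3.95 and 5.16 CPM in proestrus, 7.003 and 12.5 CPM in estrus, 3.53 and 10.3 CPM in metestrus, and 13.2 and 12.3 CPM in diestrus. Epx, which encodes eosinophil peroxidase, was at 0 in 5 of the 8 libraries.

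The interferon-induced ligands Cxcl9 and Cxcl10, which call T and NK cells through Cxcr3, did not pass the test. Cxcl10 measured 4.67 and 0.596 CPM in proestrus, 8.85 and 10.5 CPM in estrus, 3.30 and 0.898 CPM in metestrus, and 1.12 and 1.66 CPM in diestrus (adjusted p = 0.109). Both estrus libraries of Cxcl10 lay above all others, and the proestrus libraries were far apart. It passed by DESeq2 (0.0141), without the filter on low counts (0.0326) and without proestrus library 1 (0.0353). An exon of Cxcl10 overlaps Art3 on the other strand by 133 bases, and whether the counting used strand is not given in the sources used here. Cxcl9 lay between 0.397 and 3.20 CPM (adjusted p = 0.159). Cxcl11, annotated as a polymorphic pseudogene, held 10 counts, 9 of them in estrus. Cxcr3 lay between 1.74 and 4.45 CPM (adjusted p = 0.114). T and NK cell markers summed to 30.3 and 37.1 CPM in proestrus, 62.2 and 47.5 CPM in estrus, 29.4 and 38.5 CPM in metestrus, and 37.7 and 35.6 CPM in diestrus. Across the stages 39.1% of all tested genes changed, and 14 of the 16 markers were tested. Of the 16, Cd4 changed across the stages, and the count of 1 was 2 by DESeq2, without the filter on low counts or without diestrus library 2, and 0 without estrus library 2.

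Among lymphoid and dendritic cell ligands, Ccl22, which dendritic cells and macrophages make for the receptor Ccr4, was the one that changed. It measured 0.974 and 0.347 CPM in proestrus, 6.20 and 7.07 CPM in estrus, 1.65 and 1.11 CPM in metestrus, and 2.61 and 1.21 CPM in diestrus, so that both estrus libraries lay above all others. Estrus against proestrus the log2 fold change was 3.32 ± 0.59 (adjusted p = 0.0167), and metestrus against estrus -2.26 ± 0.54 (adjusted p = 0.0201). The across-stage call of Ccl22 (adjusted p = 0.0151) ended without either estrus library (0.0662 and 0.0739). Its estrus against proestrus call ended without proestrus library 2 (0.0819) or either estrus library (0.0735 and 0.0772), and its metestrus against estrus call without any 1 of the 4 libraries of that pair (0.0721 to 0.125). Ccl17, which shares the receptor and the stretch of chromosome 8 with Ccl22, lay at 0.0513 to 0.774 CPM and was not tested.

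Ccr7 guides dendritic cells and naive T cells to lymph nodes. It measured 0.256 and 0.347 CPM in proestrus, 3.15 and 2.17 CPM in estrus, 0.803 and 0.471 CPM in metestrus, and 0.405 and 0.706 CPM in diestrus. Both estrus libraries lay above all others. The log2 fold change was 3.11 ± 0.49 in estrus against proestrus (adjusted p = 0.0127) and -2.05 ± 0.45 in metestrus against estrus (adjusted p = 0.0151). Without estrus library 1, Ccr7 no longer passed across the stages (adjusted p = 0.0670, against 0.00939 with all libraries) or in metestrus against estrus (0.0847), which also ended without metestrus library 2 (0.0962). Its estrus against proestrus call ended without any 1 of the 4 libraries of that pair (0.0513 to 0.0758). Its ligand Ccl19 held 2 counts, and because the mouse genome holds near-identical copies of that gene, its value is uncertain.

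The remaining members of the lymphoid group were low. Xcl1, a ligand of cross-presenting dendritic cells made by NK and T cells, lay between 1.16 and 4.05 CPM (adjusted p = 0.246). Cxcl13, the B cell attractant, lay between 0.0893 and 0.718 CPM (adjusted p = 0.315). Its receptor Cxcr5 held 27 counts, with none in proestrus and at most 0.3001 CPM in a library. An exon of Cxcr5 overlaps Bcl9l, a gene of 27998 counts, on the other strand by 110 bases. Dendritic cell markers summed to 104 and 120 CPM in proestrus, 146 and 158 CPM in estrus, 215 and 193 CPM in metestrus, and 144 and 229 CPM in diestrus. In this sum both metestrus libraries and 1 of diestrus lay above both of estrus. Estrus against proestrus 4 markers were higher and 0 lower (8.12% and 6.94% of all tested genes). Metestrus against estrus 1 was higher and 1 lower (16.7% and 19.5% of all). Across the stages 39.1% of all tested genes changed. Of the 8 dendritic cell markers, 5 changed across the stages (3 without estrus library 2, and 2 without either proestrus library).

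Per kilobase of exon, Cxcl17 led the 45 members with a mean of 187 CPM per kb over the 8 libraries, followed by Cxcl14 with 110, Ccl11 with 51.8, Cxcl12 with 37.3, Cxcl16 with 26.9 and Ccl28 with 26.8 CPM per kb. By stage, Cxcl17 led in proestrus and estrus, while Cxcl14 led in metestrus (107 CPM per kb, with Cxcl17 at 18.6) and in diestrus (79.4, with Cxcl17 at 13.8). Cxcr4 had the highest mean of the receptors, 9.44 CPM per kb, and by stage it led them in estrus (22.7 CPM per kb) and Cx3cr1 in the other stages (5.46 to 7.43 CPM per kb). Cxcl17 is a mucosal epithelial product. It measured 284 and 156 CPM in proestrus, 377 and 268 CPM in estrus, 16.6 and 11.7 CPM in metestrus, and 11.5 and 9.58 CPM in diestrus. Proestrus and estrus overlapped and stood far above both later stages. Metestrus against estrus the log2 fold change was -4.51 ± 0.37 (adjusted p = 0.00127), and proestrus against diestrus 4.39 ± 0.37 (adjusted p = 0.00153). Metestrus against proestrus it was -3.96 ± 0.36 (adjusted p = 0.00366), a call of Cxcl17 that ended without metestrus library 2 (0.0548). Estrus against proestrus it was 0.55 ± 0.32 (adjusted p = 0.278).

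Ccl28, a ligand of Ccr10 made by mucosal epithelium, measured 250 and 214 CPM in proestrus, 245 and 162 CPM in estrus, 46.7 and 48.4 CPM in metestrus, and 28.2 and 45.9 CPM in diestrus. The libraries again fell into a high group of proestrus and estrus and a low group of metestrus and diestrus. The log2 fold change of Ccl28 was -2.10 ± 0.28 in metestrus against estrus (adjusted p = 0.00357) and 2.64 ± 0.29 in proestrus against diestrus (adjusted p = 0.00276). Metestrus against proestrus it was -2.28 ± 0.29 (adjusted p = 0.00598), which ended without either metestrus library (0.0608 and 0.0682). Ccr10 lay between 0.615 and 2.61 CPM, highest in a metestrus library (adjusted p = 0.216).

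The sum of epithelial markers was lower in metestrus and diestrus too. All 8 listed changed across the stages (5 without either metestrus library), and Foxa2 went the other way: metestrus against proestrus 7 were lower and Foxa2 was higher, and metestrus against estrus 5 were lower and Foxa2 was higher. Of all tested genes, 39.1% changed across the stages. In metestrus against proestrus 10.3% of all were lower and 6.68% higher, and in metestrus against estrus 19.5% were lower and 16.7% higher. The sum of the markers was 4911 to 5804 CPM in proestrus, 3288 to 3818 CPM in estrus, 1254 to 1319 CPM in metestrus and 938 to 1104 CPM in diestrus, and no marker was at 0. The part of the epithelium in the results of Cxcl17, Ccl28, Cxcl5 and Cx3cl1 was not tested.

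Cxcl14, a ligand made by epithelium and stroma, measured 118 and 236 CPM in proestrus, 318 and 260 CPM in estrus, 213 and 177 CPM in metestrus, and 154 and 136 CPM in diestrus (adjusted p = 0.119). It passed by DESeq2 (0.0301), without the filter on low counts (0.0497) and without either proestrus library (0.0345 and 0.0195). Ccl25, the ligand of Ccr9, lay between 1.74 and 3.42 CPM (adjusted p = 0.149) and overlaps Elavl1 on the other strand. Elavl1 held 14042 counts against 412 of Ccl25. Ccr9 measured 0.359 and 0.199 CPM in proestrus, 1.15 and 1.65 CPM in estrus, 0.134 and 0.342 CPM in metestrus, and 0.405 and 0.101 CPM in diestrus. Exons of Ccr9 overlap Gm17200, a non-coding gene of 8 counts, on the same strand by up to 269 bases. On the other strand they overlap Slc6a20a (44 counts) and AC165425.1 (0 counts). Both estrus libraries of Ccr9 lay above all others, on 88 counts in all. Its across-stage call (adjusted p = 0.0399) ended by DESeq2 (0.0533) and without any 1 library outside diestrus (0.0702 to 0.202). Metestrus against estrus Ccr9 was called lower at -2.52 ± 0.69 (adjusted p = 0.0302), which ended by DESeq2 (0.0512) and without any 1 of the 4 libraries of the pair (0.0768 to 0.149).

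Ccl20 and Ccr6, a ligand and receptor pair of mucosal lymphocytes and dendritic cells, were low. Ccl20 measured 1.13 and 0.0993 CPM in proestrus, 0.950 and 0.465 CPM in estrus, 0 in both metestrus libraries, and 1.08 and 0 CPM in diestrus (adjusted p = 0.293). With 3 counts allowed over the 2 metestrus libraries, the bound for Ccl20 was at least 10.9-fold lower in metestrus than in estrus. This bound covers counting error only, and Ccl20 did not pass the test in that pair (adjusted p = 0.121). Ccr6 held 3 counts in all.

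**Figure D5:**
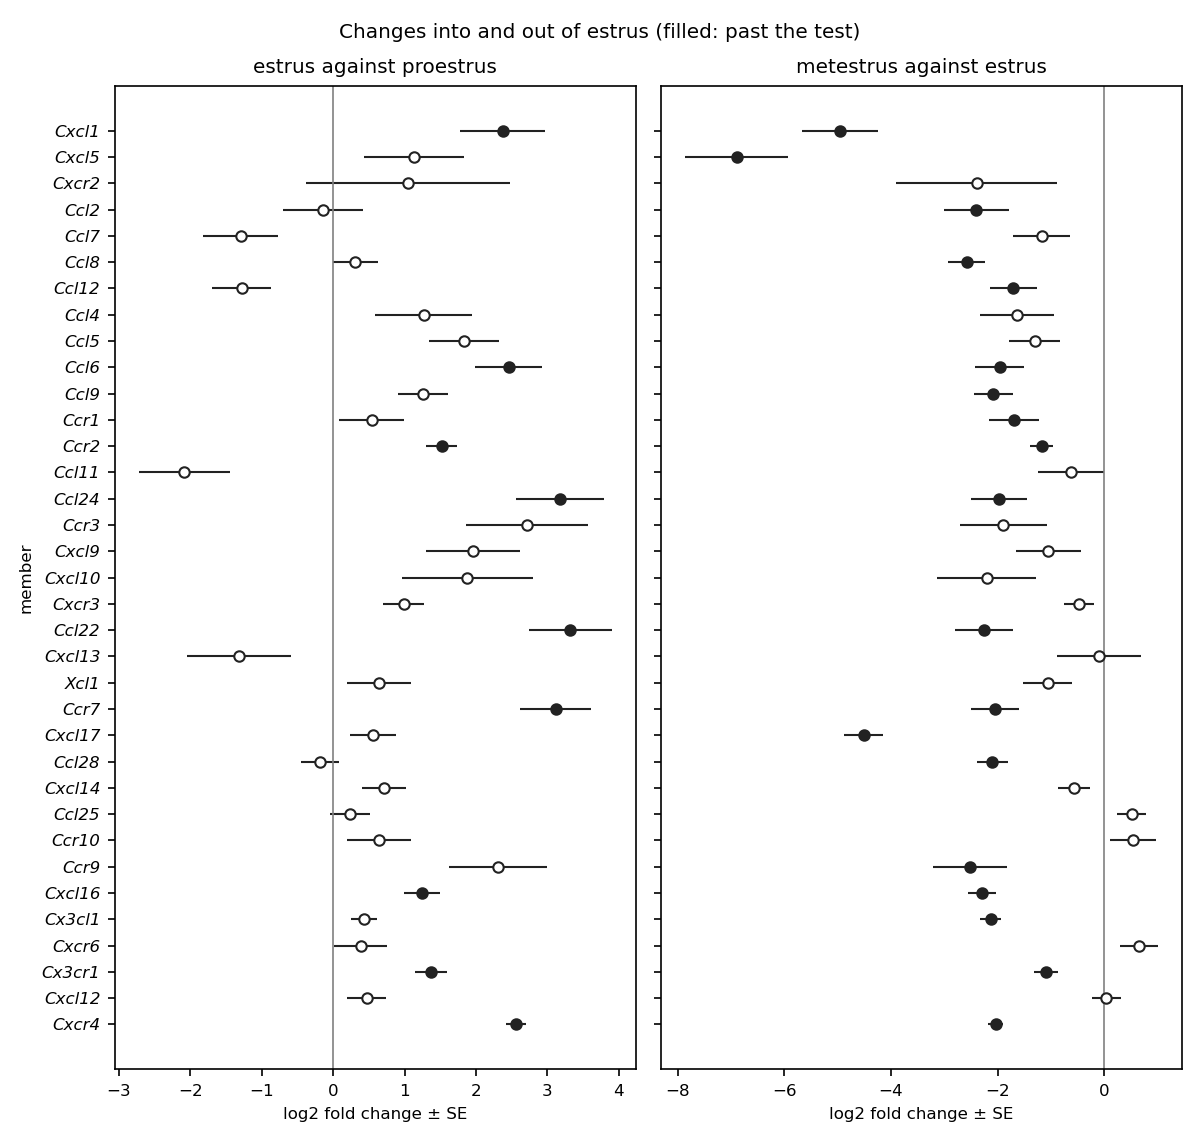
Log2 fold change ± SE of 35 tested members, one row each in the order of their roles, in estrus against proestrus (left panel) and metestrus against estrus (right panel), with filled points for members past the test. Cxcl2 and Ccl20, with 3 counts or fewer in a stage, are left out, and both panels share the estrus libraries. Cxcl5 and Cxcl1 reach -6.89 and -4.95 in the right panel, and Ccl11 lies farthest to the left in the left panel, at -2.09.

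The membrane-anchored ligands Cxcl16 and Cx3cl1 are shed by metalloproteases and bind Cxcr6 and Cx3cr1. Both were lower in metestrus and diestrus than in proestrus and estrus. Cxcl16 measured 95.0 and 57.5 CPM in proestrus, 200 and 160 CPM in estrus, 41.5 and 32.2 CPM in metestrus, and 33.1 and 30.7 CPM in diestrus. Its stages did not overlap except metestrus with diestrus. The log2 fold change of Cxcl16 was 1.24 ± 0.26 in estrus against proestrus (adjusted p = 0.0256), -2.29 ± 0.27 in metestrus against estrus (adjusted p = 0.00260) and 2.50 ± 0.27 in estrus against diestrus (adjusted p = 0.00275). The estrus against proestrus call of Cxcl16 ended without proestrus library 2 (0.0937), either estrus library (0.133 and 0.0777) or either metestrus library (0.0508 and 0.0507). An exon of Cxcl16 overlaps Zmynd15 on the other strand by 552 bases, and Zmynd15 held 2092 counts against 13153 of Cxcl16.

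Cx3cl1, or fractalkine, measured 73.0 and 54.2 CPM in proestrus, 86.6 and 84.9 CPM in estrus, 18.6 and 20.7 CPM in metestrus, and 26.7 and 20.3 CPM in diestrus. The lowest proestrus library lay above all libraries of metestrus and diestrus. Metestrus against estrus the log2 fold change of Cx3cl1 was -2.13 ± 0.20 (adjusted p = 0.00160), and estrus against diestrus 1.87 ± 0.19 (adjusted p = 0.00253). Metestrus against proestrus it was -1.69 ± 0.19 (adjusted p = 0.00491), which ended without either metestrus library (0.0548 and 0.0572).

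The receptors of these ligands peaked at different stages. Cx3cr1, a receptor of monocytes and tissue macrophages, measured 28.9 and 20.4 CPM in proestrus, 70.5 and 56.7 CPM in estrus, 30.9 and 29.1 CPM in metestrus, and 28.5 and 38.5 CPM in diestrus, with both estrus libraries above all others. Its log2 fold change was 1.37 ± 0.23 in estrus against proestrus (adjusted p = 0.0143) and -1.09 ± 0.22 in metestrus against estrus (adjusted p = 0.0123). Without estrus library 1 the calls of Cx3cr1 ended (adjusted p = 0.0855 across the stages, against 0.0128 with all libraries, 0.0846 against proestrus and 0.0745 for metestrus against estrus). The estrus against proestrus call of Cx3cr1 also ended without proestrus library 2 (0.0781) or estrus library 2 (0.0547), and the metestrus against estrus call without either metestrus library (0.0643 and 0.0807).

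Cxcr6, a receptor of tissue-resident T and NK cells, measured 0.872 and 1.74 CPM in proestrus, 1.60 and 1.81 CPM in estrus, 2.63 and 2.74 CPM in metestrus, and 3.82 and 3.83 CPM in diestrus. It was the one changed member with its highest mean in diestrus. Proestrus against diestrus the log2 fold change of Cxcr6 was -1.55 ± 0.36 (adjusted p = 0.0272). This call ended without proestrus library 1 (0.117), without any 1 library of estrus or metestrus (0.0515 to 0.0586) and in a fit of the pair alone (0.116). The across-stage call of Cxcr6 (adjusted p = 0.0429) ended without any 1 library except proestrus library 2 (0.0669 to 0.110).

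Cxcl12 and its receptor Cxcr4 hold hematopoietic cells in place and guide many leukocytes. Their highest means fell in diestrus and in estrus, respectively, and both were called lower in proestrus against diestrus. Cxcl12, a stromal product, measured 210 and 198 CPM in proestrus, 262 and 303 CPM in estrus, 274 and 306 CPM in metestrus, and 577 and 308 CPM in diestrus. Only diestrus library 1 stood far from the rest, and Cxcl12 did not pass across the stages (adjusted p = 0.0655). It passed without either diestrus library (0.0231 and 0.00204), by DESeq2 (0.00423) and without the filter on low counts (0.0188). Proestrus against diestrus the log2 fold change was -1.12 ± 0.28 (adjusted p = 0.0319), a call of Cxcl12 that ended without any 1 library outside diestrus (0.0579 to 0.138) and in a fit of the pair alone (0.127).

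Cxcr4 had the smallest p of the 45 members. It measured 6.77 and 7.15 CPM in proestrus, 38.7 and 43.4 CPM in estrus, 9.78 and 10.2 CPM in metestrus, and 10.5 and 10.1 CPM in diestrus. The lowest estrus library was more than 3 times the highest of any other stage. The log2 fold change was 2.56 ± 0.14 in estrus against proestrus (adjusted p = 0.00128), -2.04 ± 0.14 in metestrus against estrus (adjusted p = 0.000882) and 2.00 ± 0.14 in estrus against diestrus (adjusted p = 0.00107). Under every alternative that was run, Cxcr4 still passed across the stages and in these 3 pairs. Its smaller differences, -0.56 ± 0.14 in proestrus against diestrus (adjusted p = 0.0322) and 0.52 ± 0.14 in metestrus against proestrus (adjusted p = 0.0490), ended without either proestrus library (0.159 and 0.0994 for proestrus against diestrus, 0.221 and 0.125 for metestrus against proestrus) and under other alternatives.

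Chemokine genes outside the 45 gave other stage patterns. Over all tested genes, 39.1% changed across the stages. Of the 6 other ligands listed, 4 were tested and 3 changed across the stages (1 without either estrus or either metestrus library). Cxcl15, a ligand known from lung epithelium of the mouse, measured 0.0513 and 0.0993 CPM in proestrus, 1.30 and 1.08 CPM in estrus, 36.9 and 43.6 CPM in metestrus, and 2.20 and 35.8 CPM in diestrus. Both metestrus libraries of Cxcl15 and 1 of diestrus were high. Its across-stage call (adjusted p = 0.0141) ended without either proestrus library (0.0553 and 0.0516) or either estrus library (0.0547 and 0.0526). Ccl21a and Ccl27a also passed (adjusted p = 0.0476 and 0.0220). The call of Ccl21a ended without either estrus library (0.193 and 0.162) or either metestrus library (0.105 and 0.109), and that of Ccl27a without either metestrus library (0.0657 and 0.0737). Both have near-identical copies in the mouse genome and their counts are uncertain. Pf4, made by platelets, lay between 2.58 and 8.70 CPM (adjusted p = 0.560).

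Of the 8 other and atypical receptors, 6 were tested and 4 changed across the stages (2 without either estrus library or proestrus library 2, and 1 without proestrus library 1 or either metestrus library). The share over all tested genes was 39.1%. Atypical receptors bind chemokines without classical signalling and clear them. Ackr3, which takes up Cxcl12, had its lowest levels in both estrus libraries and 1 of diestrus. It measured 137 and 93.5 CPM in proestrus, 42.2 and 52.6 CPM in estrus, 88.0 and 85.3 CPM in metestrus, and 80.5 and 52.8 CPM in diestrus. The across-stage call of Ackr3 (adjusted p = 0.0321) ended without proestrus library 1 (0.0870), either estrus library (0.124 and 0.0827) or either metestrus library (0.0789 and 0.0807). Ackr2, a scavenger of CC chemokines, was also lowest in estrus, at 0.950 and 0.671 CPM, against 1.94 to 3.69 CPM in the other libraries (adjusted p = 0.0387). That call of Ackr2 ended without any 1 library outside diestrus (0.0740 to 0.178).

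Ackr4, which clears Ccl19 and Ccl21, measured 8.56 and 8.09 CPM in proestrus, 3.85 and 1.34 CPM in estrus, 3.26 and 2.99 CPM in metestrus, and 9.27 and 6.61 CPM in diestrus (adjusted p = 0.0457). It ended without either proestrus library (0.110 and 0.101), either metestrus library (0.115 and 0.127) or diestrus library 1 (0.0509). Ccrl2, which presents chemerin, was highest in estrus. It measured 1.85 and 2.04 CPM in proestrus, 7.80 and 7.59 CPM in estrus, 2.10 and 3.04 CPM in metestrus, and 5.76 and 4.34 CPM in diestrus. Ccrl2 passed under every alternative (adjusted p = 0.00807).

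Genes that carry the signal of chemokine receptors were also highest in estrus in many cases. Of the 21 listed, all were tested and 13 changed across the stages (7 without estrus library 1, and 8 without estrus library 2). In estrus against proestrus 9 were higher and 0 lower by edgeR (1 lower at an unadjusted p under 0.05, and 0 by DESeq2), and in metestrus against estrus 12 were lower and 1 higher. Of all tested genes, 39.1% changed across the stages. In estrus against proestrus 8.12% of all were higher and 6.94% lower, and in metestrus against estrus 19.5% were lower and 16.7% higher. The count of 9 was 1 without estrus library 1 or proestrus library 2, 2 without estrus library 2, 5 without proestrus library 1 and 6 without metestrus library 2, and that of 12 was 6 without metestrus library 1 and 7 without estrus library 1. Rgs1, which shortens signals of these receptors in leukocytes, measured 3.85 and 2.38 CPM in proestrus, 25.4 and 24.1 CPM in estrus, 2.37 and 1.75 CPM in metestrus, and 6.61 and 6.15 CPM in diestrus (adjusted p = 0.00145). Vav1, an exchange factor of blood cells, was at 15.3 and 11.9 CPM in proestrus, 34.1 and 28.3 CPM in estrus, 10.7 and 9.33 CPM in metestrus, and 9.81 and 10.04 CPM in diestrus (adjusted p = 0.00323). Lyn and Pik3r5, a Src-family kinase and a subunit of the kinase PI3K-gamma, were high in proestrus too (adjusted p = 0.00378 and 0.00323), with Lyn at 84.1 to 129 CPM in proestrus and 144 to 185 CPM in estrus, and Pik3r5 at 31.5 to 60.0 CPM in proestrus and 61.5 to 82.7 CPM in estrus.

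Among cytokines and factors that induce chemokines, 16 of 23 were tested and 12 changed across the stages, where 39.1% of all tested genes changed. In metestrus against estrus 12 were lower and 0 higher by edgeR (0 at an unadjusted p under 0.05, and 0 by DESeq2). Of all tested genes, 19.5% were lower there and 16.7% higher. In estrus against proestrus 5 were higher and 0 lower by edgeR (likewise 0 lower unadjusted and by DESeq2), where 8.12% of all were higher and 6.94% lower. The count of 5 was 1 without either estrus library or proestrus library 2, 2 without either metestrus library and 3 without proestrus library 1. The 12 of metestrus against estrus were 7 without metestrus library 2. Tnfaip3, a target and brake of NF-kappaB, measured 10.6 and 9.98 CPM in proestrus, 83.6 and 49.0 CPM in estrus, 6.12 and 6.76 CPM in metestrus, and 8.05 and 8.57 CPM in diestrus (adjusted p = 0.00123). Nfkbiz, a nuclear cofactor of NF-kappaB, was at 82.3 and 58.9 CPM in proestrus, 183 and 106 CPM in estrus, 10.8 and 11.2 CPM in metestrus, and 23.7 and 12.3 CPM in diestrus (adjusted p = 0.00323). Irf7, an interferon-related factor, was high in both proestrus and estrus. It measured 265 and 130 CPM in proestrus, 372 and 272 CPM in estrus, 19.6 and 11.9 CPM in metestrus, and 10.03 and 17.1 CPM in diestrus (adjusted p = 0.00232). Ifng, Ifnb1, Il13 and Il17a, genes of inducing cytokines, were at 0 in most or all libraries and were not tested.

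Of 11 enzymes and proteins that trim or hold chemokines, 10 were tested and 8 changed across the stages (5 without estrus library 1, and 4 without any 1 of estrus library 2 and the libraries of proestrus and metestrus). Over all tested genes the share that changed was 39.1%. Mmp9, a metalloprotease that cleaves several chemokines, was highest in estrus, with 8.72 and 8.73 CPM in proestrus, 68.4 and 65.7 CPM in estrus, 10.1 and 12.2 CPM in metestrus, and 14.6 and 22.8 CPM in diestrus (adjusted p = 0.00130). Adam10, a sheddase of Cxcl16 and Cx3cl1, measured 279 and 224 CPM in proestrus, 283 and 266 CPM in estrus, 155 and 154 CPM in metestrus, and 147 and 168 CPM in diestrus (adjusted p = 0.00855). Sdc1, a heparan sulfate carrier of epithelium, was highest in proestrus, at 347 and 345 CPM, against 135 to 235 CPM in the other libraries (adjusted p = 0.00252). Cd44, a hyaluronan receptor that can carry glycosaminoglycans, was lowest in proestrus, at 41.9 and 38.6 CPM, against 78.4 to 143 CPM elsewhere (adjusted p = 0.00736).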

How the data were processed

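RNA of the uterus was sequenced in 8 libraries, 2 for each of 4 stages. The authors deposited raw counts per gene, whole numbers with library totals that differ. Per the labels, polyadenylated RNA was made into stranded libraries. The submitters' processing notes name STAR, featureCounts of the Subread package, and the mouse build GRCm38 (mm10). The version, the annotation and the use of strand were not given in the sources used here, so reads of overlapping genes may be shared.

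Symbols and coordinates came from GENCODE M21, which held 52058 of the 52308 identifiers. No library had more than 0.0107% of its counts on the other 250. The tests used edgeR 4.0.16 under R 4.3.3. The filter filterByExpr by stage left 18114 genes and removed 34194. TMM factors, which scale for composition, were 0.8975 to 1.111. The quasi-likelihood model had 1 coefficient for each stage and used all 8 libraries, which leaves 4 residual degrees of freedom. The stages were tested together and then in 6 pairs, with Benjamini-Hochberg adjustment over all tested genes. SEs are the log2 fold change over the square root of F. For a stage with no count, folds are bounds against 3 counts over the stage, and for 1 to 3 counts a ratio with an exact 95% counting interval is given. Both cover counting error only. The test was also run on simulated counts with known changes. The simulation gave all genes the same spread, planted changes only in genes over 1 CPM and tested estrus against proestrus. It did not check genes with few counts or a wide spread, or fits without a library.

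Alternatives were DESeq2 1.42.0, its size factors in edgeR, no filter on low counts, only the 4 libraries of a pair, a block for the replicate number, and leaving out 1 library at a time. DESeq2 adjusts p-values with its own filter. The members, the gene lists and the marker lists were chosen with earlier results of these data known. Every member was accounted for. From each pathway list the genes with the smallest p across the stages, up to 4, were named, except 1 that is not reported here. Promoters are RefSeq sequences of GRCm38.p6 matched by symbol, found for 32 of the 45 members.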

Additional observations from a re-analysis of the deposited data

How the results depend on the processing

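With 2 libraries a stage, leaving out 1 left a lone library assumed to vary like the other stages. Over all tested genes, 7085 changed across the stages with every library, 3086 to 4661 without 1 of proestrus, estrus or metestrus, and 8951 and 9479 without 1 of diestrus. Members changed across the stages, 22 in all, were then 13 to 27. The counts given were then 1 to 15 higher and 0 to 1 lower for estrus against proestrus, 0 higher and 10 to 25 lower for metestrus against estrus, and 0 to 1 higher for diestrus against metestrus. They were 7 to 11 higher and 0 to 4 lower for proestrus against diestrus, 9 to 20 higher and 0 to 1 lower for estrus against diestrus, and 0 to 2 higher and 0 to 11 lower for metestrus against proestrus.

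Estrus against proestrus, 1 member was lower by DESeq2, 1 without the filter on low counts and 2 with the replicate block. Diestrus against metestrus, 1 was lower by DESeq2. Proestrus against diestrus, 0 were lower with only the 4 libraries of the pair, a fit with fewer samples. Metestrus against proestrus, 0 were higher by DESeq2, without the filter and with the replicate block. The cause was not tested. The replicate number was taken as a block only here, because same-numbered libraries did not deviate together (correlations of -0.093 to 0.145 between stages). With the block 22 members changed across the stages. Ccr3 then passed across the stages (adjusted p = 0.0240), Ccr9 did not across the stages (0.0636) or in estrus against diestrus (0.0678), and 2 of the 3 tested eosinophil markers changed.

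Of 131 single-gene results, 74 were log2 fold changes in a pair, and 0 of these reversed under any alternative. The others were tests across the stages, which have no direction that could reverse. DESeq2 size factors kept all 131, DESeq2 120, no filter 123 and the block 127, and leaving out estrus library 1 ended the most calls, 45. Members under about 1 CPM rest on few counts, and 8 could not be tested at this depth.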
